A study of Homo sapiens with 6 samples.

Results

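ID1, ID2, ID3 and ID4 encode the inhibitors of DNA binding. They were examined in A375, a human melanoma line in long-standing laboratory use that carries an activating mutation of BRAF, after lentiviral transduction with murine BMI1 (3 libraries) or with GFP (3 libraries). The libraries hold RNA of cell populations grown in serum, and all of them carry a lentivirus. The sources used here do not name the promoter of the viruses or say whether a line grew from 1 clone. The family was taken as the 4 rows of the gene table with these symbols, out of 23345 rows. The 4 genes were chosen because ID1 was higher and ID4 lower in BMI1 cells. Their values in that comparison are therefore given as a description, without a test. The labels do not say that the 3 libraries of a group came from separate cultures, so p-values of other genes measure only the spread between these libraries, which may be technical.

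ID proteins carry a helix-loop-helix dimerization domain but lack the basic region with which related transcription factors contact DNA. They pair with E proteins, the widely expressed basic helix-loop-helix factors TCF3, TCF4 and TCF12, and keep them and their tissue-restricted partners away from E boxes in DNA. ID1, ID2 and ID3 are classical early targets of bone morphogenetic protein (BMP) signalling through SMAD1, SMAD5 and SMAD9. ID4 is the most divergent member, and in several tumour types it is known to be silenced by DNA methylation.

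The promoter sequences are shown because 3 members were higher and the fourth lower in BMI1 cells. The 250 bases before the annotated start of each gene are printed 5′ to 3′ on the strand of the gene, from RefSeq on build GRCh38.p14, a different build from the hg19 named for the deposited counts. Capitals mark E boxes (CANNTG) and TATA boxes (TATAAA), each searched on both strands. The windows are chr20:31605039-31605288 for ID1 and chr2:8681806-8682055 for ID2 on the plus strand, chr1:23559502-23559751 for ID3 on the minus strand, and chr6:19837120-19837369 for ID4 on the plus strand.
ID1: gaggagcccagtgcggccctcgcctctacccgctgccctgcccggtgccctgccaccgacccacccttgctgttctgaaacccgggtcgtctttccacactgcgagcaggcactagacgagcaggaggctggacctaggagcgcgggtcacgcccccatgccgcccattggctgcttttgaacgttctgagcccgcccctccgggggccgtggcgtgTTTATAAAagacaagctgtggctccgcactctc
ID2: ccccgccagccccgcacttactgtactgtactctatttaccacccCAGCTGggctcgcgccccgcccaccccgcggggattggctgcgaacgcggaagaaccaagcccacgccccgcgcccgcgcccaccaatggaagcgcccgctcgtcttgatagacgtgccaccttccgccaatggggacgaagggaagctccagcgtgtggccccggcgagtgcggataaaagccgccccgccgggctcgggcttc
ID3: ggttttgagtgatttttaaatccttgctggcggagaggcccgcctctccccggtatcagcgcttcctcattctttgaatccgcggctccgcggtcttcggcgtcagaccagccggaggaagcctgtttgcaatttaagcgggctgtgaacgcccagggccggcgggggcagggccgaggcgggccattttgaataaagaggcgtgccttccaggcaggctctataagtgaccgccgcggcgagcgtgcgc
ID4: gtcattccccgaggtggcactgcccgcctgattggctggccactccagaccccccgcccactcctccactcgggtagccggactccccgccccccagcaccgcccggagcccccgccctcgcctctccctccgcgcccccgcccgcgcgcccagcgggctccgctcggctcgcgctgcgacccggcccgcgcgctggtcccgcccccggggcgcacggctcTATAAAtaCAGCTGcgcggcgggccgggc
TATA boxes were found in ID1, where the matches on the 2 strands overlap at 33 and 31 bases before the start, and in ID4, at 29 bases before the start. Such a match occurred in 10.7% of 35116 promoters of the same length. An E box occurred in ID2, at 205 bases before the start, and in ID4, at 21 bases, and in 61.8% of all promoters. Both were the palindrome CAGCTG.

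Other motifs also differed in number among the 4 windows. The GC box GGGCGG, a binding sequence of SP1-type factors, occurred 6 times in ID4, 2 times in ID1 and ID2 and 0 times in ID3, and in 42.6% of all promoters. CCAAT occurred 3 times in ID2, at 172, 122 and 78 bases before the start, and 1 time in ID1 and in ID4, at 84 and 220 bases, against 32% of all promoters. The core TGACG of cyclic AMP response elements was found in ID3, at 150 bases, and in 21.2% of all promoters. GGCGCC, a GC-rich element bound by BMP-activated SMADs, was in none of the 4 windows and in 16.4% of all promoters, and the palindromic SMAD element GTCTAGAC was in none of the 4 and in 0.182% of all. These motifs were searched on both strands as well. Sequence further upstream was not searched, so a missing match says nothing about elements outside these windows. The window of ID4 was the richest in G and C, at 78.8% with 34 CpG dinucleotides, while the other windows held 62.0% to 69.2% and 19 to 29.

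The libraries held between 20221432 and 30388937 estimated counts, and 15079 genes passed the filter on low counts, among them all 4 ID genes. The first principal component parted BMI1 from GFP libraries, and GFP replicate 1 lay apart on the second. Lineage genes SOX10, MITF, S100B and PAX3 were expressed in each library, while the pigment genes TYR, DCT and PMEL had at most 20 counts in any library. The BMI1 row, a check of the labels, averaged 515 ± 8.51 CPM, the count of a gene relative to the TMM-scaled size of its library, in BMI1 cells and 89.4 ± 6.87 CPM in GFP cells (SD, n = 3 each; log2 fold change 2.53, SE 0.06, edgeR adjusted p = 2.59e-11). That row can hold reads of the human gene and of the murine transgene where these align to it. Of the tested genes, 17.1% rose and 9.32% fell by edgeR's quasi-likelihood test at an adjusted p of 0.05.

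ID1, the member best known from BMP signalling and from tumour and endothelial cells, had 136, 122 and 136 CPM in BMI1 replicates 1, 2 and 3, against 48.4, 51.3 and 48.1 CPM in GFP replicates 1, 2 and 3. The lowest BMI1 library was above the highest GFP library, with BMI1 replicate 2 below the other BMI1 libraries. The means were 131 ± 7.82 CPM in BMI1 and 49.2 ± 1.78 CPM in GFP cells (SD, n = 3 each), 2.66-fold higher in BMI1, with a log2 fold change of 1.41 (SE 0.06). Of all tested genes, 2.98% had a log2 fold change at least as high. In bulk RNA, a change in the number of cells that express a gene and a change in its RNA per cell cannot be told apart.

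ID3, a close relative that acts redundantly with ID1 in mouse development, had 109, 94.4 and 107 CPM in BMI1 replicates 1, 2 and 3, against 37.6, 42.3 and 39.2 CPM in GFP replicates 1, 2 and 3. As for ID1, the groups did not overlap and BMI1 replicate 2 was the lowest of its group. ID3 averaged 103 ± 7.81 CPM in BMI1 and 39.7 ± 2.4 CPM in GFP cells (SD, n = 3 each), a 2.6-fold difference and a log2 fold change of 1.38 (SE 0.07). The ratio of ID1 CPM to ID3 CPM was 1.25, 1.29 and 1.27 in the BMI1 libraries and 1.29, 1.21 and 1.23 in the GFP libraries. The 2 transcripts thus kept nearly the same proportion in both groups, whose ratios overlapped.

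ID2, known for its role in lymphoid development and for binding the retinoblastoma protein, was detected at a low level. It had 4.95, 5.41 and 4.64 CPM in BMI1 replicates 1, 2 and 3, against 1.25, 2.03 and 1.59 CPM in GFP replicates 1, 2 and 3. The groups did not overlap, and here BMI1 replicate 2 was the highest library. ID2 averaged 5 ± 0.385 CPM in BMI1 and 1.62 ± 0.392 CPM in GFP cells (SD, n = 3 each), with a log2 fold change of 1.61 (SE 0.18). The counts behind these values were 111, 109 and 114 in the BMI1 libraries and 26, 51 and 48 in the GFP libraries. The 26 counts of GFP replicate 1 have an exact 95% Poisson interval of 17 to 38.1, which covers counting error only.

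ID4, which in neural tissue takes part in the timing of differentiation, went the other way. It had 2.23, 2.83 and 2.24 CPM in BMI1 replicates 1, 2 and 3, against 5.37, 5.6 and 5.37 CPM in GFP replicates 1, 2 and 3. The highest BMI1 library, replicate 2, was below the lowest GFP library. The means were 2.43 ± 0.342 CPM in BMI1 and 5.45 ± 0.136 CPM in GFP cells (SD, n = 3 each), 2.24-fold lower in BMI1, with a log2 fold change of -1.17 (SE 0.14). The sums behind them were 162 counts over the BMI1 libraries and 415 over the GFP libraries. Of all tested genes, 0.537% had a log2 fold change at least as low.

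**Figure D1:**
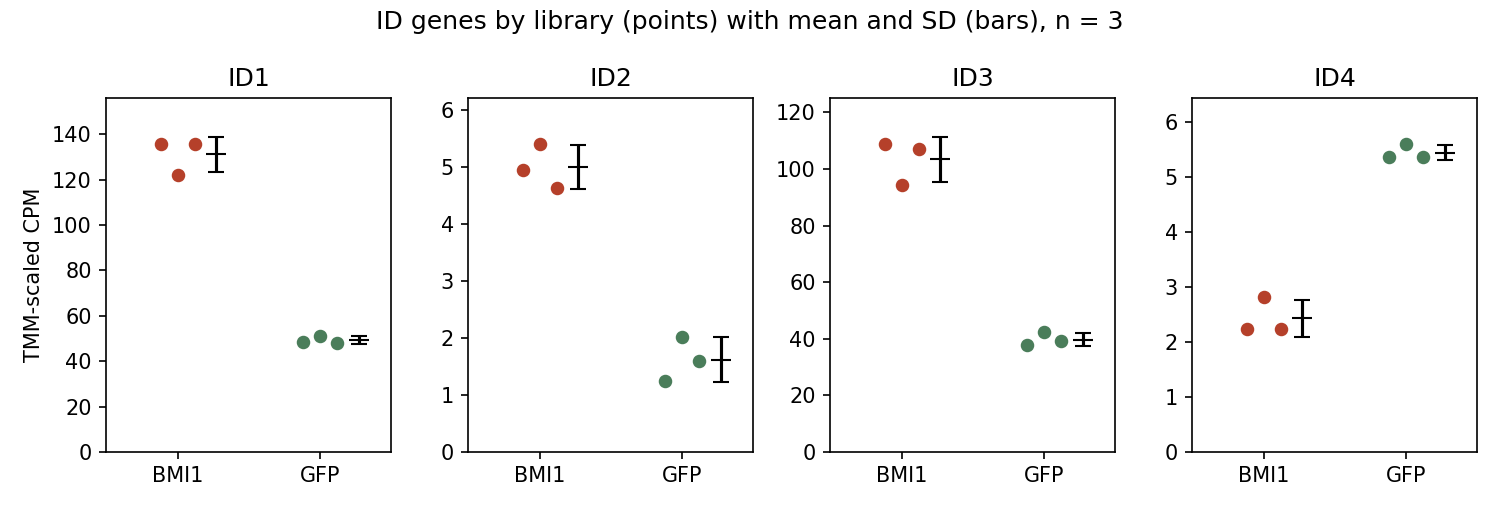
TMM-scaled CPM of ID1, ID2, ID3 and ID4 in each of 3 BMI1 and 3 GFP libraries (points), with the mean and SD beside them; each panel has its own linear axis from 0. The BMI1 libraries lie above the GFP libraries for ID1, ID2 and ID3 and below them for ID4.

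Thus 3 members had BMI1 libraries entirely above the GFP libraries and 1 had them entirely below, while 22.7% of all tested genes were separated upward and 17.4% downward. As the genes were chosen from this comparison, nothing is read from these counts. The spread between the 3 libraries of a group is given as a description. The coefficient of variation was 5.96% in BMI1 and 3.61% in GFP cells for ID1, and 7.55% and 6.05% in BMI1 and GFP cells for ID3. It was 7.7% in BMI1 and 24.1% in GFP cells for ID2, and 14.1% in BMI1 and 2.5% in GFP cells for ID4. The 2.5% rests on 112, 141 and 162 counts, with exact 95% Poisson intervals of 92.2 to 135, 119 to 166 and 138 to 189. Counting error alone is thus wider than that spread, and nothing is read from the order of these values. The longest annotated transcripts of the 4 genes shared 0 stretches of 25 bases with each other. The deposited estimates were whole numbers for ID2 in every library, and fractional in some libraries for ID1, ID3 and ID4. The antisense genes annotated over ID2 and ID4 in GENCODE v29 have no row in the table. Without strand information, their reads cannot be told apart from those of ID2 and ID4.

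To compare levels between members, CPM was divided by the length of the longest annotated transcript, between 1233 bases for ID1 and 2344 for ID4. On this scale of CPM per kilobase, ID1 stood highest, at 110, 99 and 110 in BMI1 replicates 1, 2 and 3 and at 39.2, 41.6 and 39 in GFP replicates 1, 2 and 3. ID3 followed at 75.5 to 86.9 in BMI1 and 30.1 to 33.8 in GFP cells, below ID1 in each library. Both lay far above the other members. The order of the low members turned: ID2 had 2.27 to 2.65 and ID4 0.952 to 1.21 CPM per kilobase in BMI1 cells, whereas in GFP cells ID2 had 0.61 to 0.993 and ID4 2.29 to 2.39.

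Summed over the family, the level was 200, 178 and 199 CPM per kilobase in BMI1 replicates 1, 2 and 3, against 72.2, 78.8 and 73.4 in GFP replicates 1, 2 and 3. The sum was 2.57-fold higher in BMI1 cells and followed ID1 and ID3, which together made up nearly all of it. ID1 took 55.3% ± 0.321 of the sum in BMI1 and 53.4% ± 0.794 in GFP cells, and ID3 took 42.9% ± 0.557 in BMI1 and 42.4% ± 0.643 in GFP cells (SD, n = 3 each). ID4 took 0.544% ± 0.114 in BMI1 and 3.11% ± 0.0709 in GFP cells. ID2 took 1.28% ± 0.185 in BMI1 and 1.06% ± 0.207 in GFP cells, which overlapped. With the coding length in place of the transcript length ID3 had the larger mean share, 49.1% for ID3 and 47.9% for ID1 in BMI1 cells and 47.8% for ID3 and 45.6% for ID1 in GFP cells, so the order of these members depends on the length used.

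**Figure D2:**
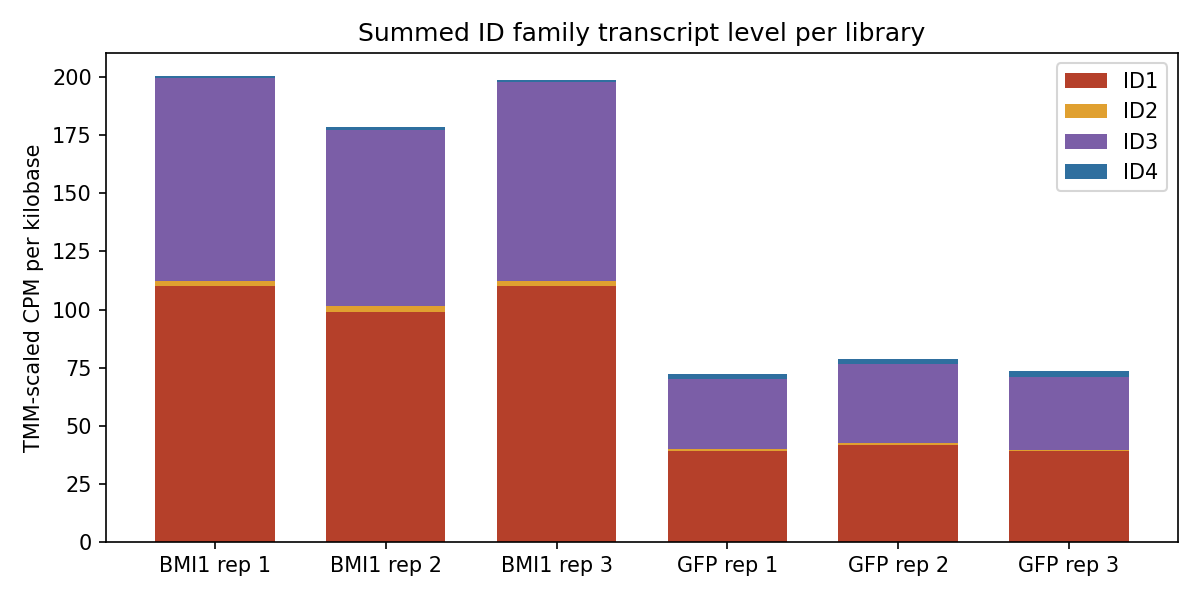
Summed TMM-scaled CPM per kilobase of transcript for ID1, ID2, ID3 and ID4 (stacked from the bottom) in each BMI1 and GFP library. The bars reach 178 to 200 in BMI1 libraries and 72.2 to 78.8 in GFP libraries, nearly all of it ID1 and ID3; the ID4 share is 0.544% in BMI1 and 3.11% in GFP cells on average.

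The genes whose pattern over the 6 libraries lay closest to each ID gene were found by the root mean square difference between log2 CPM profiles, each centred on its own mean, among genes with a mean of at least 5 CPM. ID3 was the nearest gene to ID1, and ID1 the nearest to ID3, at 0.0345. INHBA, which encodes the activin A subunit, and LMO7, a LIM-domain protein of cell junctions, were near both, at 0.053 and 0.0561 from ID1 and at 0.0653 and 0.0548 from ID3. REEP6 was near both as well, NGEF was the remaining gene near ID1, and PCSK5, a proprotein convertase, the remaining gene near ID3.

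The profile of ID2 was followed by EPB41L4B (0.0798), ABI3BP, C7orf58, MGP, which encodes matrix Gla protein, and C14orf132. MGP stood at 173 ± 11.9 CPM in BMI1 and 56.8 ± 3.89 CPM in GFP cells (SD, n = 3 each). ID4 was followed by ST8SIA4 (0.0679), a polysialyltransferase, then by NAP1L3, the organic anion exporter ABCC2, the cold-sensing channel TRPM8, and C1orf114. ABCC2 stood at 23.1 ± 1.54 CPM in BMI1 and 45.1 ± 1.25 CPM in GFP cells (SD, n = 3 each). Because every profile is dominated by the difference between the groups, these names describe a shared pattern of 6 libraries. ID2 and ID4, at under 5 CPM, were not themselves candidates as neighbours.

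**Figure D3:**
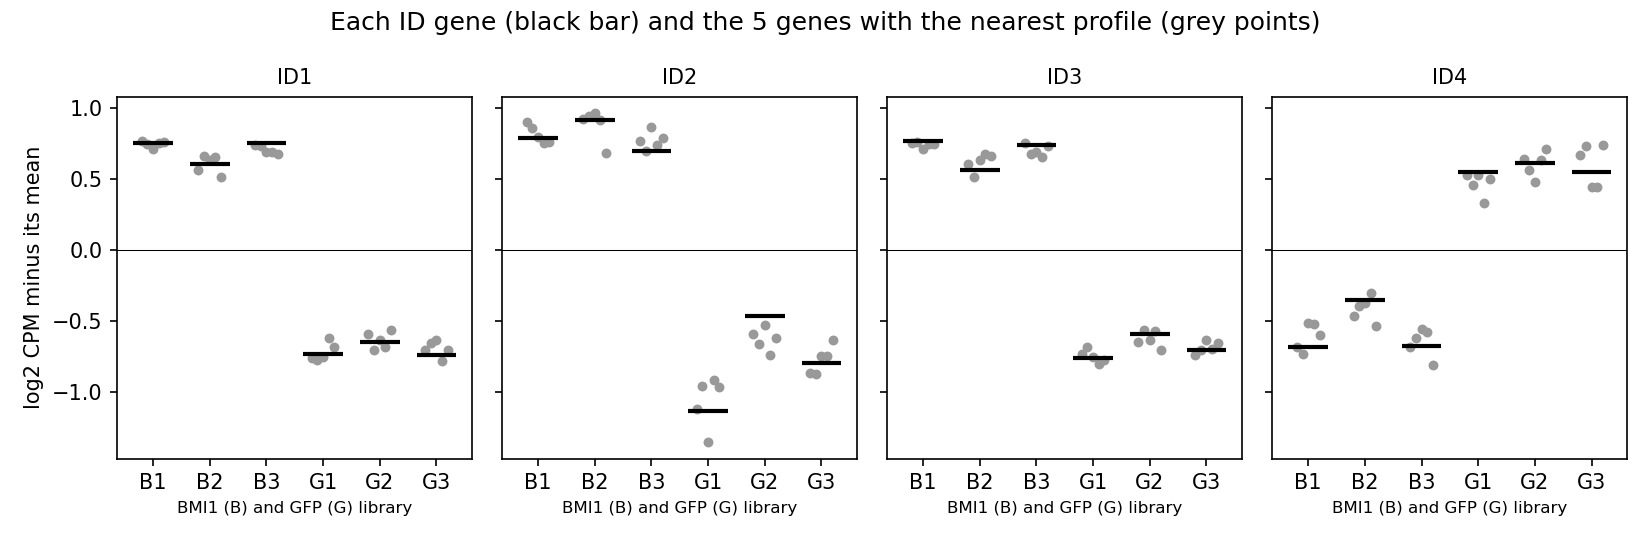
Log2 CPM minus its mean over the 6 libraries for each ID gene (black bars) and the 5 genes with the smallest root mean square difference from it (grey points), in BMI1 libraries (B) and GFP libraries (G). The patterns of ID1 and ID3 are nearly the same, and in ID4 the BMI1 libraries lie below the GFP libraries.

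Of the dimerization partners of the ID proteins, 1 E protein rose. Of 3 E proteins, 1 rose and 2 did not pass, with a median log2 fold change of 0.17. Over all tested genes the median was -0.012 and 17.1% rose. TCF3 rose, with 67, 64.3 and 71.9 CPM in BMI1 replicates 1, 2 and 3, against 58.8, 51.9 and 52.4 CPM in GFP replicates 1, 2 and 3 (log2 fold change 0.32, SE 0.07, edgeR adjusted p = 0.00395). TCF4 averaged 18.8 ± 0.712 CPM in BMI1 and 16.6 ± 2.16 CPM in GFP cells (SD, n = 3 each; edgeR adjusted p = 0.176), and TCF12 194 ± 4.83 and 193 ± 8.89 CPM in BMI1 and GFP cells (edgeR adjusted p = 0.97). Per kilobase, the summed ID transcripts were 3.59 to 4.12 times the summed E protein transcripts in BMI1 libraries and 1.55 to 1.72 times in GFP libraries, a ratio that the choice of the ID genes bears on. After correction for GC content TCF4 (log2 fold change 0.27, edgeR adjusted p = 0.00285) and TCF12 (0.07, edgeR adjusted p = 0.0454) also passed.

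Tissue-restricted helix-loop-helix factors, which pair with E proteins, ranged from undetected to well expressed. Of 41 listed genes 14 had 0 counts in all libraries, among them the muscle factors MYOD1 and MYOG, and 13 were tested, of which 7 rose and 1 fell. The median log2 fold change was 0.20, and over all tested genes 17.1% rose and 9.32% fell. NEUROG2, a neuronal determination factor, rose to 9.87 ± 0.996 CPM in BMI1 cells, against 4.34 ± 0.732 CPM in GFP cells (SD, n = 3 each; 2.27-fold, edgeR adjusted p = 2.15e-05). ATOH8 rose by 0.74 and TWIST2, a mesenchymal factor, by 0.71 on the log2 scale. TAL1, a blood-forming factor, rested on 116 counts over the BMI1 and 33 over the GFP libraries, with a log2 fold change of 2.01 that became 2.60 without GFP replicate 3. The fall was OLIG1, an oligodendrocyte lineage factor, at 0.366 ± 0.126 CPM in BMI1 and 0.795 ± 0.111 CPM in GFP cells (SD, n = 3 each; edgeR adjusted p = 0.0178). With DESeq2, or on leaving out GFP replicate 3 or either of BMI1 replicates 1 and 3, OLIG1 did not pass, and the filter of 1 CPM in 3 libraries removed it; each left 0 falls in the list.

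Among the helix-loop-helix repressors of the HES, HEY and BHLHE40 group, 4 rose, 0 fell and 5 did not pass out of 9 tested, a median log2 fold change of 0.31. The shares over all tested genes were 17.1% rises and 9.32% falls. No fall was seen by DESeq2, by limma-voom or at an unadjusted p of 0.05 either. BHLHE40, a stress and clock-linked repressor, rose to 65.2 ± 3.05 CPM in BMI1 cells, against 43 ± 1.48 CPM in GFP cells (SD, n = 3 each; log2 fold change 0.60, edgeR adjusted p = 8.71e-06). HES2 had a log2 fold change of 1.63 and HES4 of 2.21, both at under 6 CPM. HEY1 rose by 0.31, but its call was lost with DESeq2 (adjusted p = 0.104) and in edgeR without GFP replicate 2 (adjusted p = 0.0909), GFP replicate 3 (0.115), or BMI1 replicate 1 (0.0597), 2 (0.0706) or 3 (0.11).

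The leucine zipper class of helix-loop-helix factors, which generally dimerize among themselves, had 4 rises, 1 fall and 16 genes that did not pass among 21 tested, and a median log2 fold change of 0.07. Over all tested genes 17.1% rose and 9.32% fell, so these shares are near the background. The rises included MLXIPL, a glucose-responsive factor, with 1.99, TFEB, a regulator of lysosomal genes, with 0.88, and MXD4, a MYC antagonist, with 0.37 on the log2 scale. MYCN rested on 68 counts over the BMI1 and 5 over the GFP libraries. Its log2 fold change of 3.84 became 4.51 without GFP replicate 2. MLX, a dimer partner of MLXIPL, was the fall, at -0.16 (edgeR adjusted p = 0.0435). With upper quartile scaling MLX did not pass (edgeR adjusted p = 0.0638), nor did it on leaving out GFP replicate 1 (0.0738) or 2 (0.122) or BMI1 replicate 1 (0.113), 2 (0.148) or 3 (0.12).

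Other proteins reported to bind ID proteins did not pass the test. Of 8 tested genes 0 rose and 0 fell by edgeR, DESeq2 or limma-voom, and 3 were higher and 0 lower at an unadjusted p of 0.05 in edgeR. By edgeR 17.1% of all tested genes rose and 9.32% fell. RB1, the retinoblastoma gene, stood at 0.01 on the log2 scale (edgeR adjusted p = 0.966), and the list ran from -0.64 to 0.17. After correction for GC content 4 of the genes rose, and 2 did without GFP replicate 1.

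Of 5 genes that act on ID protein stability, 1 fell and 4 did not pass, while 17.1% of all tested genes rose and 9.32% fell. USP1, the deubiquitinase known to stabilise ID proteins, stood at -0.05 on the log2 scale (edgeR adjusted p = 0.672). WDR48, its cofactor, stood at 0.02 (edgeR adjusted p = 0.792). FZR1, the APC/C activator that targets ID proteins for destruction, stood at 0.10 (edgeR adjusted p = 0.218), and the ubiquitin ligase SMURF2 at 0.10 (edgeR adjusted p = 0.207). COPS5, a signalosome subunit, fell by 0.20 on the log2 scale (edgeR adjusted p = 0.02). Its call was lost without GFP replicate 2 (edgeR adjusted p = 0.119) or 3 (0.0544) or BMI1 replicate 1 (0.139) or 3 (0.0833), and SMURF2 passed after correction for GC content (log2 fold change 0.18, edgeR adjusted p = 0.00723).

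**Figure D4:**
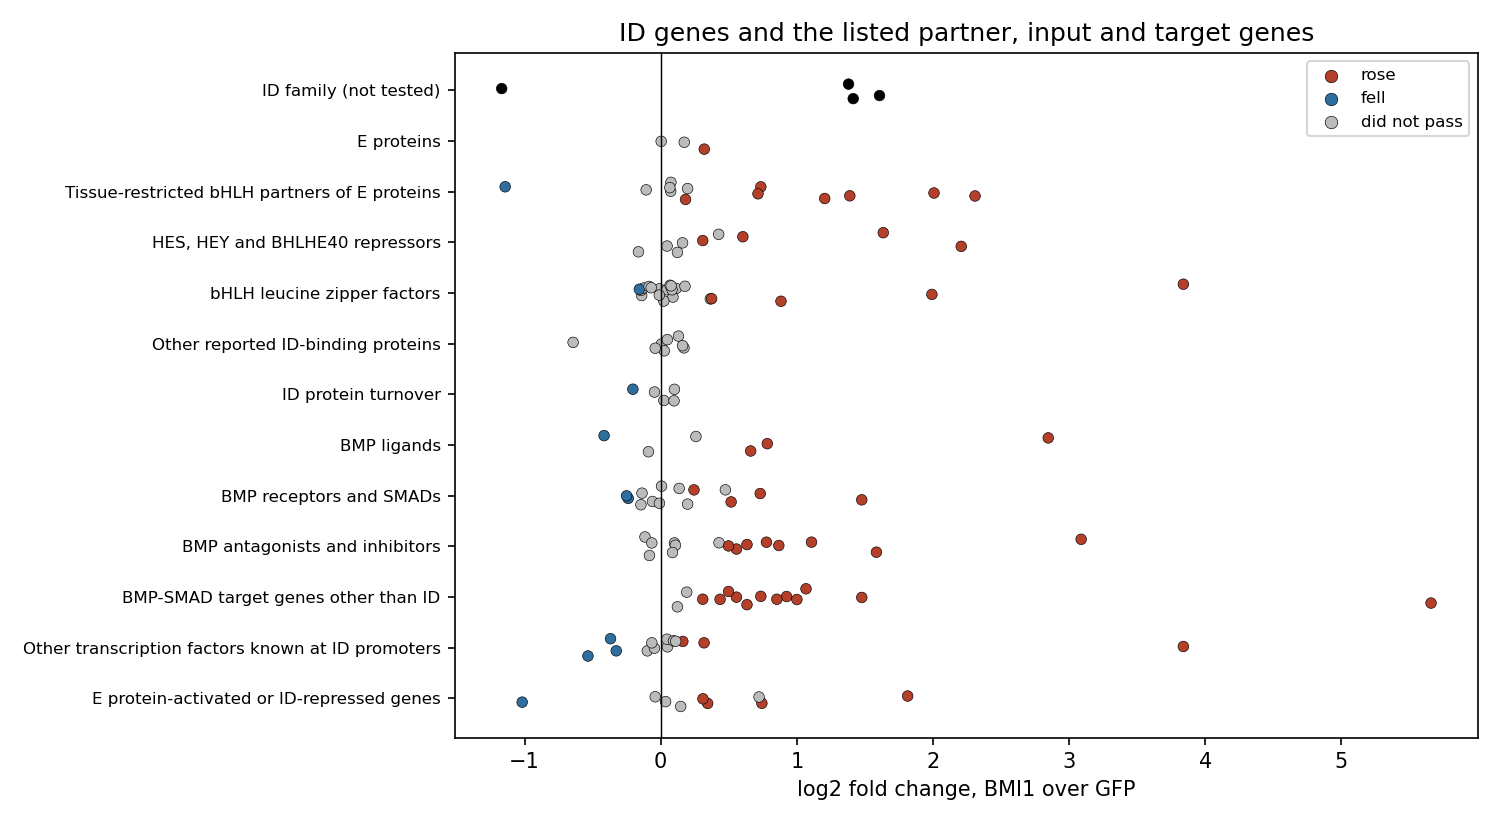
Log2 fold change, BMI1 over GFP, of the 4 ID genes (black, not tested) and of the tested genes of 12 lists, by whether they rose, fell or did not pass edgeR's test. The lists were chosen with earlier results of these data known. Of the BMP-SMAD targets 12 of 14 rose, against 17.1% of all tested genes. The E proteins run from 0.00 to 0.32, the ID-binding proteins from -0.64 to 0.17 and the turnover genes from -0.20 to 0.10.

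Genes of the BMP pathway, which drives ID transcription, moved at several levels. Of 6 tested BMP ligands, 3 rose and 1 fell, with a median log2 fold change of 0.46. Across all tested genes 17.1% rose and 9.32% fell. BMP7 had 41.4, 44.7 and 44.7 CPM in BMI1 replicates 1, 2 and 3, against 5.32, 6.08 and 6.6 CPM in GFP replicates 1, 2 and 3, a 7.26-fold rise (edgeR adjusted p = 1.97e-10). BMP2 and BMP6 rose by 0.78 and 0.66 on the log2 scale. BMP8B stood at -0.42 on the log2 scale (edgeR adjusted p = 0.000335) but is nearly identical to BMP8A, at -0.09 (edgeR adjusted p = 0.688), so the split of reads between these genes is uncertain.

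Among 14 tested receptors and signal-transducing SMADs there were 4 rises and 2 falls, while 8 did not pass, a median log2 fold change of 0.07. Rises made up 17.1% and falls 9.32% of all tested genes. SMAD9, one of the BMP-activated SMADs and itself a BMP target, rose to 7.27 ± 0.249 CPM in BMI1 cells, against 2.61 ± 0.0381 CPM in GFP cells (SD, n = 3 each; log2 fold change 1.48, edgeR adjusted p = 1.51e-06). SMAD1 and SMAD5, the more abundant SMADs of the branch, stood at 0.14 and -0.01 on the log2 scale (edgeR adjusted p = 0.233 and 0.94). ACVR1, a type I receptor for BMPs, rose by 0.24 (edgeR adjusted p = 0.00899), while the main type II receptor BMPR2 stood at 0.01 (edgeR adjusted p = 0.958). SMAD4, the common partner, had -0.25 (edgeR adjusted p = 0.0159), a call lost without GFP replicate 3 (0.0627) or BMI1 replicate 1 (0.0609) or 3 (0.0736). The count of rises in this list ran from 2, on leaving out GFP replicate 2 or either of BMI1 replicates 2 and 3, to 5, and that of falls from 0, without GFP replicate 3, to 3.

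Secreted and intracellular inhibitors of the pathway included 8 genes that rose. Of 15 tested, 8 rose, 0 fell and 7 did not pass, a median log2 fold change of 0.50. For all tested genes the shares were 17.1% rises and 9.32% falls. DESeq2, limma-voom and an unadjusted p of 0.05 also gave 0 falls in the list, and leaving out GFP replicate 1 gave 2. The follistatin gene FST and the follistatin-like genes FSTL1 and FSTL3 had the largest log2 fold changes among the abundant members. FSTL1 stood at 68.7 ± 1.91 CPM in BMI1 and 22.9 ± 0.62 CPM in GFP cells (SD, n = 3 each; log2 fold change 1.58, edgeR adjusted p = 1.42e-09). FST rose by 1.11 and FSTL3 by 0.87 on the log2 scale, and the decoy receptor BAMBI by 0.50 (edgeR adjusted p = 3.88e-05). NOG and GREM1, classical BMP antagonists, were below the filter, GREM1 with 0 counts in each library. CHRD, another antagonist, rose by 3.09 on the log2 scale (edgeR adjusted p = 0.00101). That value rested on 40 counts over the BMI1 and 5 over the GFP libraries.

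Most other known transcriptional targets of BMP-activated SMADs rose in BMI1 cells. Of 16 listed genes 14 were tested, of which 12 rose and 2, HES1 and MSX1, did not pass, with a median log2 fold change of 0.68. Over all tested genes 17.1% rose and the median was -0.012. The list was chosen with earlier results of these data known, so the difference is given as a description. No target fell by edgeR, DESeq2 or limma-voom or at an unadjusted p of 0.05. GATA2, a transcription factor, had 34.2, 32.9 and 33.8 CPM in BMI1 replicates 1, 2 and 3, against 17.4, 15.9 and 15 CPM in GFP replicates 1, 2 and 3 (log2 fold change 1.07, SE 0.07, edgeR adjusted p = 1.55e-07). DLX2, a homeobox gene, had 25.8, 22.7 and 24.4 CPM in BMI1 replicates 1, 2 and 3, against 12.6, 12.6 and 13.3 CPM in GFP replicates 1, 2 and 3 (log2 fold change 0.92, SE 0.07, edgeR adjusted p = 9.5e-07). In both genes the groups were far apart relative to the spread within them.

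RUNX2, a bone-forming factor, rose to 12.4 CPM on average in BMI1 cells, against 6.17 CPM in GFP cells (edgeR adjusted p = 2.11e-05). The inhibitory SMADs SMAD6 and SMAD7, feedback genes of the pathway, rose to 17.5 ± 1.36 and 14.8 ± 0.992 CPM in BMI1 cells, against 11.9 ± 0.768 and 9.54 ± 0.797 CPM in GFP cells (SD, n = 3 each; edgeR adjusted p = 0.000273 and 0.000171). DLX3 had 107 counts over the BMI1 libraries and 2 over the GFP libraries, a ratio of 60.7 with an exact 95% interval of 16.4 to 508 for counting error only. Leaving out any 1 library kept 11 or 12 rises in this list, the missing call being that of HEY1. SMAD6, SMAD7 and BAMBI stand in the inhibitor list as well, SMAD9 in the receptor list, and ATOH8, HEY1 and HES1 in lists of helix-loop-helix factors. Transforming growth factor beta also acts on several of these genes. The part of each ligand in the levels of the ID genes was not tested.

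**Figure D5:**
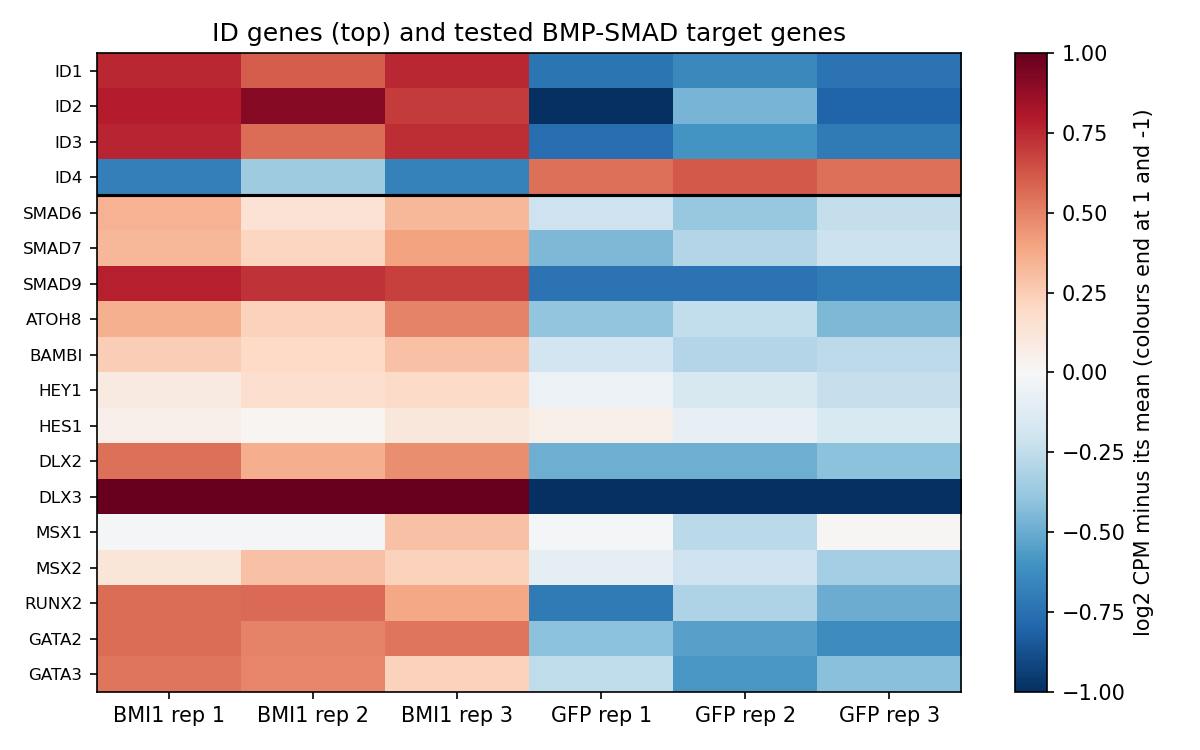
Log2 CPM minus its mean over the 6 libraries for the 4 ID genes (above the line) and the 14 tested BMP-SMAD target genes, in BMI1 (left) and GFP (right) libraries; red is above and blue below the mean, and DLX3 lies outside the colour range. ID4 is the row whose BMI1 libraries are all below its mean, whereas ID1, ID2, ID3 and 12 of the 14 targets have separated groups with BMI1 higher.

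Markers of other cell types that express ID genes or BMP targets were measured as well. Over all tested genes 17.1% rose and 9.32% fell. Of 5 tested fibroblast markers 4 rose, and DCN did not pass (edgeR adjusted p = 0.19). With DESeq2 3 of them rose, and on leaving out a library 3 or 4 did. The 7 fibroblast markers listed summed to between 33.7 and 34.3 CPM in BMI1 libraries and between 15.6 and 18.5 CPM in GFP libraries. COL3A1 and THY1 had at most 4 counts in any library. Endothelial markers summed to between 7.09 and 8.02 CPM in BMI1 libraries and between 9.01 and 9.78 CPM in GFP libraries, with 1 of 3 tested genes higher and 1 lower, and CDH5 had at most 2 counts in any library. Of 2 tested keratinocyte markers 1 rose, at a summed level of 67.4 to 69.7 CPM in BMI1 and 56.5 to 69.2 CPM in GFP libraries, and KRT1 had 0 counts. The keratinocyte rise, KRT14 (edgeR adjusted p = 0.0146), was lost on leaving out GFP replicate 3 or either of BMI1 replicates 1 and 2. Of 2 tested leukocyte markers 1 rose and 1 fell, at a summed level of 46.3 to 50.5 CPM in BMI1 and 43 to 49.2 CPM in GFP libraries, and PTPRC had at most 2 counts. The leukocyte rise, CD68 (edgeR adjusted p = 0.0446), was lost with DESeq2's size factors and on leaving out GFP replicate 2 or 3 or BMI1 replicate 1 or 3. The part of the fibroblast markers' source in the ID values was not tested.

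Transcription factors known to act at ID promoters outside the BMP branch were split. Among 13 tested genes there were 3 rises and 3 falls, while 7 did not pass, a median log2 fold change of 0.05. The background was 17.1% rises and 9.32% falls over all tested genes. EGR1, an immediate early factor known to activate ID1, had 123 ± 13.1 CPM in BMI1 and 154 ± 9.37 CPM in GFP cells (SD, n = 3 each; log2 fold change -0.33, edgeR adjusted p = 0.00533). ATF3, a stress factor known to repress ID1 together with SMAD3, had 11.9 ± 1.68 CPM in BMI1 and 17.3 ± 0.972 CPM in GFP cells (SD, n = 3 each; log2 fold change -0.53, edgeR adjusted p = 0.00126). KLF4 fell by 0.37 and STAT5A rose by 0.32 on the log2 scale, and MYC stood at 0.05 (edgeR adjusted p = 0.67). Leaving out a library kept the 3 falls in each of the 6 cases and left 2 or 3 rises.

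Genes that E proteins are known to activate, or that are known to be repressed through ID proteins, did not move in 1 direction. Among 9 tested genes of 16 listed there were 4 rises and 1 fall, while 4 did not pass, a median log2 fold change of 0.31. All tested genes together had 17.1% rises and 9.32% falls. THBS1, the thrombospondin gene repressed through ID1 in mouse cells, rose to 416 ± 24.6 CPM in BMI1 cells, against 249 ± 18.9 CPM in GFP cells (SD, n = 3 each; log2 fold change 0.74, edgeR adjusted p = 1.43e-06). The cell cycle inhibitor genes CDKN1A and CDKN1C rose by 0.34 and 0.31 (edgeR adjusted p = 0.00255 and 0.00583), while CDKN2A, another gene linked to ID1, stood at 0.04 (edgeR adjusted p = 0.898). EBF1, an E protein target in lymphoid cells, rose by 1.81 on the log2 scale. RAG1, a lymphoid recombinase gene, stood at 0.915 ± 0.235 CPM in BMI1 and 1.83 ± 0.351 CPM in GFP cells (SD, n = 3 each; edgeR adjusted p = 0.00846), a call lost without BMI1 replicate 3 (adjusted p = 0.0536). The CDKN1C call was lost after correction for GC content (edgeR adjusted p = 0.0516).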

How the data were processed

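RNA of A375 cells was sequenced in 3 BMI1 and 3 GFP libraries. The authors deposited estimated counts per gene symbol, with no normalization. RSEM 1.2.12, Bowtie 1.0.1 and build hg19 are named per the submitters' processing notes, without settings; the sources used here give neither strandedness nor annotation. Columns were matched to libraries by the labels, and 0 columns were left unused.

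Estimated counts were rounded to whole numbers, filtered with edgeR's filterByExpr, scaled by TMM and tested over 15079 genes with edgeR's quasi-likelihood test (edgeR 4.0.16, R 4.3.3), with Benjamini-Hochberg adjustment and a threshold of 0.05. The SE is the log2 fold change over the root of F. Fold changes are BMI1 over GFP, and CPM are TMM-scaled. Log2 CPM used a prior count of 2. Expression per kilobase used GENCODE v29 transcripts. Promoters came from RefSeq.

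The members and the 12 gene lists were chosen with earlier results of these data known. Named were the ID genes, BMI1, the E proteins, the turnover genes, up to 6 members per list with the smallest adjusted p that passed, and the 5 nearest profiles per ID gene; not all picked genes are described.

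Alternatives were DESeq2 size factors, upper quartile scaling, other filters, limma-voom (limma 3.58.1), the Wald test of DESeq2 1.42.0, leaving out each library, the replicate number as a block and, chosen after seeing the data, a correction for transcript GC content, with a value for 94.8% of tested genes. On simulated counts for BMI1 against GFP over 15079 genes, edgeR recovered 91% of genes changed 1.5-fold and 98.5% of those changed 2-fold. Of its calls, 3.02% were false. The simulation gave every gene the same dispersion and changed only a small set of genes with a mean above 1 CPM. It had no library lying apart, so these rates need not hold for the real libraries. Figures used matplotlib 3.10.9.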

Additional observations from a re-analysis of the deposited data

How the results depend on the processing

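The log2 fold changes of the ID genes kept their sign under the 14 alternatives. They ran from 1.33 to 1.46 for ID1, 1.48 to 1.79 for ID2, 1.31 to 1.44 for ID3 and -1.28 to -1.11 for ID4. The value of ID1 after GC correction, 1.33, was the only one that moved by more than the spread between libraries. The family sum ran from 1.33 to 1.42 on the log2 scale. With coding lengths the shares of ID1, ID2, ID3 and ID4 became 47.9%, 2.12%, 49.1% and 0.863% in BMI1 cells and 45.6%, 1.72%, 47.8% and 4.86% in GFP cells. The number of genes that fell was 1405, 2493 after GC correction, and 711 to 2451 on leaving out a library: 2451 without GFP replicate 1, 769 and 885 without GFP replicates 2 and 3, and 727 and 711 without BMI1 replicates 1 and 3.

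Over the 12 lists 43 of 120 tested genes rose (35.8%) and 10 fell (8.33%). The shares of all tested genes were 17.1% and 9.32%, so the share that fell was near the background. After GC correction 16 fell, and on leaving out a library 5 to 12 fell, with 6 without GFP replicate 3 or BMI1 replicate 1 and 5 without BMI1 replicate 3. GC correction also gave 3 rises in the E proteins, 4 in the ID-binding proteins and 1 in the turnover genes, and 6 falls in the leucine zipper factors. The single fall of the tissue-restricted factors became 0 with DESeq2 and with the 1 CPM filter, and that of the leucine zipper factors 0 with upper quartile scaling. With no filter, 1 ID-binding protein rose. On leaving out a library, falls ran from 0 to 1 in the tissue-restricted, leucine zipper, turnover and E protein-activated or ID-repressed lists, from 0 to 3 in the receptors and from 0 to 2 in the BMP inhibitors; rises ran from 2 to 5 in the receptors and from 0 to 2 in the ID-binding proteins. The cause of these shifts was not tested.

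Of 90 further genes, 71 kept their side of the threshold throughout and no called value changed sign. Same-numbered libraries of the groups correlated at 0.068, 0.094 and -0.065, so the numbers were not taken to pair the libraries. With the replicate block 3988 genes passed in place of 3986, the ID1 log2 fold change was 1.41 and the STAT5B and E2F3 calls were lost (edgeR adjusted p = 0.0636 and 0.0692). ID2 and ID4 rest on 26 to 162 counts per library, which limits the precision of their values.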

Other observations

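The protein-coding genes next to the ID genes, 3 on each side by their RefSeq order, were looked at after the ID values were known. Of 24 neighbours 22 were tested, of which 6 rose and 1 fell, with log2 fold changes from -0.29 to 0.60. The ID genes were chosen from this comparison, so the size of their changes is not set against that of the neighbours. Over all tested genes 17.1% rose and 9.32% fell. One of the 6 rises, REM1 next to ID1 (log2 fold change 0.60, edgeR adjusted p = 0.0349), was lost with DESeq2 (adjusted p = 0.103), after GC correction (0.0658) and without GFP replicate 2 (0.107) or 3 (0.069) or BMI1 replicate 2 (0.124) or 3 (0.109). Next to ID1, the survival gene BCL2L1 stood at -0.12 (edgeR adjusted p = 0.27) and the spindle gene TPX2 at -0.08 (edgeR adjusted p = 0.163), and COX4I2 had 0 counts. Next to ID2, KIDINS220 stood at -0.06 (edgeR adjusted p = 0.585), and RNF144A, a ubiquitin ligase gene, rose by 0.29 (edgeR adjusted p = 0.00401). Next to ID3, E2F2, a cell cycle factor, rose by 0.48 (edgeR adjusted p = 0.000848), while RPL11, a ribosomal protein gene on the other side, stood at 0.04 (edgeR adjusted p = 0.536). Next to ID4, MBOAT1 stood at -0.11 (edgeR adjusted p = 0.373). E2F3 had -0.17 (edgeR adjusted p = 0.0487), a call that was lost without GFP replicate 2 (0.146) or 3 (0.135) or BMI1 replicate 1 (0.0796), 2 (0.0957) or 3 (0.174). The E2F3 call was also lost with upper quartile scaling (0.0577) and with the replicate block (0.0692). With no filter (0.056) or the filter of 1 CPM in 3 libraries (0.0572) E2F3 did not pass either. The ID2B row, an ID2-derived pseudogene, had 0 counts in each library.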
